A study of Homo sapiens with 2 samples.

Results

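Binding of hnRNPM, a nuclear RNA-binding protein that takes part in splicing, was examined on the transcripts of 5 Hippo pathway genes: STK3, LATS1, YAP1, WWTR1 and TEAD1. A crosslink site was assigned to a gene when its middle base lay on the strand of that gene and within its span on GRCh37. By this rule 236 of the 54373 sites in the list (0.434%) were members. They fell in 4 of the 5 genes, with 113 in STK3, 32 in YAP1, 16 in WWTR1 and 75 in TEAD1, and none was listed in LATS1. The genes were selected on pathway membership and on site numbers already seen in this same list. Their site numbers, heights and positions are therefore given as descriptions, without tests.

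The sites came from iCLIP, a method in which ultraviolet light links a protein to the RNA it touches and the ends of truncated cDNAs mark the linked base. The cells were HMLE, an immortalised human mammary epithelial line, with WT genotype and DMSO treatment, and the precipitating antibody was anti-hnRNPM. The 2 libraries, labelled biological replicates 1 and 2, formed a single group with no control. The study set these sites beside cryptic splicing linked to LINE elements. The list gave 1 value per site and named no library, so no spread between replicates could be stated and library depths are unknown here. RNA levels were not measured in this list, and the epithelial identity of the cells could not be checked against marker genes. A gene with few sites and a gene with little RNA cannot be told apart.

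The Hippo pathway is a kinase cascade that restrains tissue growth. The kinase encoded by STK3, also called MST2, activates the LATS kinases, which phosphorylate the coactivators YAP1 and WWTR1 (TAZ) and so keep them out of the nucleus. When unphosphorylated, these coactivators enter the nucleus and bind TEAD transcription factors on DNA. In mammary epithelium the pathway is known for its response to cell density and attachment.

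Each site was an interval of 21 nt with a height, a whole number deposited by the authors and read here as the number of cDNA truncations at the site. In the whole list heights ran from 4 to 1969, with a median of 11 and quartiles at 8 and 17. Neither height nor site number was corrected for RNA abundance, so neither ranks binding strength between genes. Spans were 541 kb for STK3 (chromosome 8, 99413631 to 99955055, minus strand), 60.1 kb for LATS1 (chromosome 6, 149979289 to 150039392, minus strand) and 123 kb for YAP1 (chromosome 11, 101981192 to 102104154, plus strand). Those of the other two genes were 219 kb for WWTR1 (chromosome 3, 149235022 to 149454501, minus strand) and 270.3 kb for TEAD1 (chromosome 11, 12695969 to 12966284, plus strand). No annotation or sequence of GRCh37 was used here, so exon, intron, repeat and motif content of the sites were not analysed. As a property of the genes on another build, GENCODE 29 on GRCh38 gave exons 2.20% of the length of STK3, 14.4% of LATS1, 5.12% of YAP1, 3.83% of WWTR1 and 3.81% of TEAD1.

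**Figure D1:**
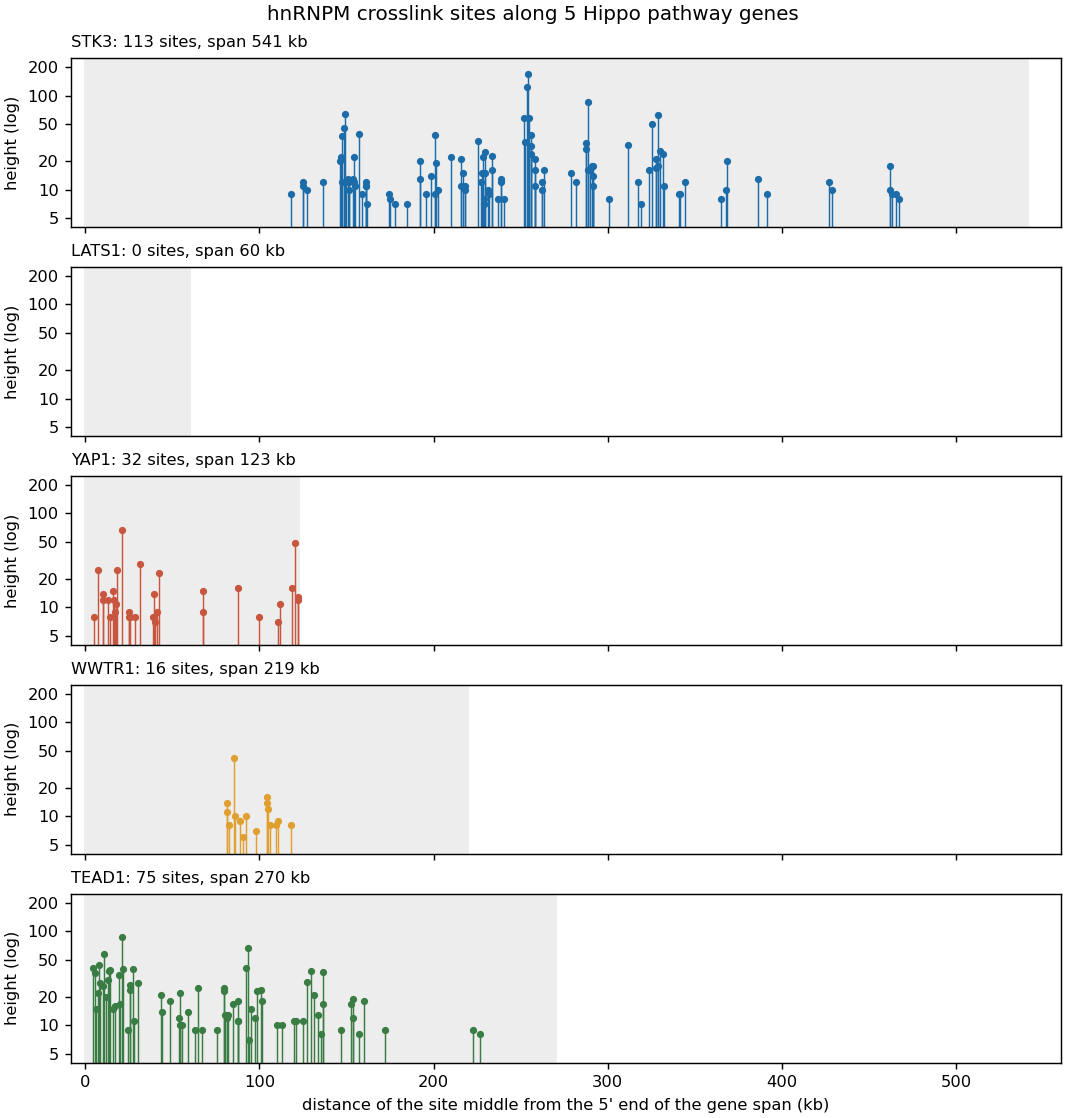
Each stem is 1 crosslink site, at its distance in kb from the 5′ end of the gene span (x axis) with its height on a log axis (y axis); grey shading is the span. Sites of STK3 began 118 kb into the span, those of WWTR1 lay between 81.1 and 118 kb, those of TEAD1 and YAP1 began within 5 kb of the 5′ end, and LATS1 had none.

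STK3 and LATS1 encode the kinases. STK3 held the most sites of the 5 genes, and their heights ran from 7 to 171 with a median of 13 and quartiles of 10 and 21. These sites made up 113 of the 3007 sites on chromosome 8 and had a summed height of 2292. The first site lay 118 kb from the 5′ end and the last at 467 kb, so 21.8% of the span at its 5′ end and 13.7% at its 3′ end held no site. Whether the STK3 RNA made in HMLE cells covers those end parts was not measured. Between the first and last site, sites were uneven. The interval from 140 to 340 kb held 93 of the 113 sites and 90.4% of the summed height, and its sites had a median height of 15, against 10 for the 20 sites elsewhere in the gene. The limits of this interval, and of all groups of sites described below by kb from the 5′ end, were chosen after positions and heights were seen, so differences in height inside and outside them restate that choice.

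Tall sites of STK3 stood in a few groups within that interval. The tallest, with a height of 171, was at chr8:99700742-99700762, 254 kb from the 5′ end. It was 57.2 times its expected height, a value deposited by the authors with 1 level per tag cluster. The next had a height of 122 and lay 253 kb from the 5′ end, at chr8:99701598-99701618. Both belonged to the fullest tag cluster of the 5 genes, in which 8 sites over 4180 nt had heights of 58, 32, 122, 171, 57, 38, 24 and 29 in transcript order. That cluster alone held a summed height of 531. The 20 kb from 250 to 270 kb held 14 sites with a median height of 26.5 and 26.9% of the summed height of the gene, while the other 99 sites had a median of 12. Next came a site with a height of 86 at chr8:99666338-99666358, 289 kb from the 5′ end.

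Groups of lower sites flanked this peak in STK3. From 140 to 170 kb there were 20 sites with a median height of 12 and a maximum of 63. From 190 to 240 kb there were 30 sites with a median of 13 and a maximum of 38. Downstream of the peak, 10 sites from 280 to 300 kb had a median of 17 and a maximum of 86, the third tallest site of the gene. Another 9 sites from 320 to 340 kb had a median of 21 and a maximum of 62. Beyond 400 kb only 7 sites were listed, none taller than 18. The longest gap between neighbours, 35.5 kb, separated a site of height 9 at 391 kb from one of height 12 at 427 kb.

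LATS1, the kinase that acts on the coactivators, had no listed site on either strand of its 60.1 kb. The nearest sites on its own strand lay 45.4 kb beyond its 3′ end, with a height of 7, and 143 kb beyond its 5′ end, with a height of 9. The 50 kb beyond its 3′ end held 4 sites on its strand, with heights from 7 to 10. A span of this length would hold 12.5 sites at the density of STK3, 15.6 at that of YAP1, 4.38 at that of WWTR1 and 16.7 at that of TEAD1. These genes were chosen with their site numbers known, so their densities are no baseline for LATS1. Spans without a site were the common case in the list as a whole. When windows of 60.1 kb were tiled over both strands, 89.5% of 97320 windows were empty, with untranscribed regions included. The list holds only sites that passed the authors' calling, so absence from it does not bound the number of crosslinks in LATS1.

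YAP1 and WWTR1 encode the related coactivators. YAP1 had 32 sites with heights from 7 to 66, a median of 12 and quartiles of 8 and 15.3, close to the whole list. Its sites reached from 5 kb after the 5′ end to 0.772 kb before the 3′ end and so spanned 95.3% of the gene. They were concentrated at the 5′ side: 22 of 32 (68.8%) lay in the first 50 kb, at 0.440 sites per kb. A second group of 6 sites lay from 110 kb to the 3′ end, at 0.463 sites per kb, with 4 sites in the 60 kb between. The longest gap, 25.4 kb, opened after a site of height 23 at 42.1 kb and closed at a site of height 15 at 67.5 kb.

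The tallest site of YAP1 had a height of 66, which was 55.5 times its expected height, at chr11:102002052-102002072, 20.9 kb from the 5′ end. The next was at the far end of the gene, 121 kb from the 5′ end at chr11:102101799-102101819, with a height of 48 and 27.1 times its expected height. A site at chr11:102012288-102012308 followed with a height of 29. No tag cluster of YAP1 held more than 2 sites, and 24 of its 28 clusters held 1.

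WWTR1 differed in layout. Its 16 sites all lay between 81.1 and 118 kb from the 5′ end, a stretch of 37.1 kb or 16.9% of the span. The first 81.1 kb and the last 101 kb held no site. Heights ran from 6 to 42 with a median of 9.5, and 15 of the 16 sites were no taller than 16. The exception, at chr3:149368934-149368954, had a height of 42 (49.4 times its expected height), lay 85.6 kb from the 5′ end and carried 21.9% of the summed height of 192. The next tallest sites had heights of 16 and 14. The longest gap inside this stretch was 7.60 kb.

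Just outside the span of WWTR1 a further site on the same strand lay 11.8 kb beyond the 5′ end, with a height of 7. Not every transcript of a gene covers its whole span. In GENCODE 29 on GRCh38, where WWTR1, YAP1 and LATS1 were as long as the spans used here, STK3 was 572 kb and TEAD1 269.9 kb, the 12 transcripts of WWTR1 had starts spread over 196 kb, the 20 of STK3 over 555 kb, the 7 of TEAD1 over 205 kb, the 11 of YAP1 over 117 kb and the 7 of LATS1 over 16.3 kb. Which of these starts HMLE cells use was not measured. The same annotation placed other genes of the same strand so that they overlapped STK3 (6), WWTR1 (1) and TEAD1 (1), mostly pseudogenes and noncoding RNAs, and sites on those RNAs would be counted here with the larger gene.

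TEAD1, a DNA-binding partner of both coactivators, had 75 sites with heights from 7 to 86, a median of 17 and quartiles of 11 and 26.5. The first site lay 4.33 kb from the 5′ end. The first 40 kb held 24 sites with a median height of 28 and 46.4% of the summed height of 1603, and the other 51 sites had a median of 13. The tallest site, at chr11:12717258-12717278, had a height of 86 and was 21.3 kb from the 5′ end. Another of height 57 lay at 10.6 kb, at chr11:12706529-12706549.

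Away from its 5′ end, TEAD1 had a second group of 19 sites from 70 to 110 kb, with a median height of 15. It included the second tallest site of the gene, with a height of 66 at chr11:12789152-12789172, and the fullest tag cluster, whose 6 sites over 2409 nt had heights of 25, 23, 13, 13, 12 and 13 in transcript order. After 172 kb the gene was nearly empty. A gap of 50.1 kb, the longest in any of the 5 genes, was followed by 2 sites with heights of 9 and 8 at 222 and 227 kb.

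Over the whole span, TEAD1 had 0.277 sites per kb (95% Poisson interval 0.218 to 0.348), YAP1 0.260 (0.178 to 0.367), STK3 0.209 (0.172 to 0.251) and WWTR1 0.0729 (0.0417 to 0.118). These intervals cover counting error only, and since sites gather in groups they are too narrow. The intervals of TEAD1, YAP1 and STK3 overlapped, and that of WWTR1 lay below all of them. The genes were chosen with their site numbers known, so overlap or its absence does not test their order. The low value of WWTR1 depended on the denominator. Between the first and last site of each gene, WWTR1 had 0.432 sites per kb (0.247 to 0.701), TEAD1 0.337 (0.265 to 0.422), STK3 0.323 (0.267 to 0.389) and YAP1 0.273 (0.187 to 0.385), and all 4 intervals overlapped. WWTR1 thus moved from the lowest place to the highest. This denominator is itself set by the sites.

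**Figure D2:**
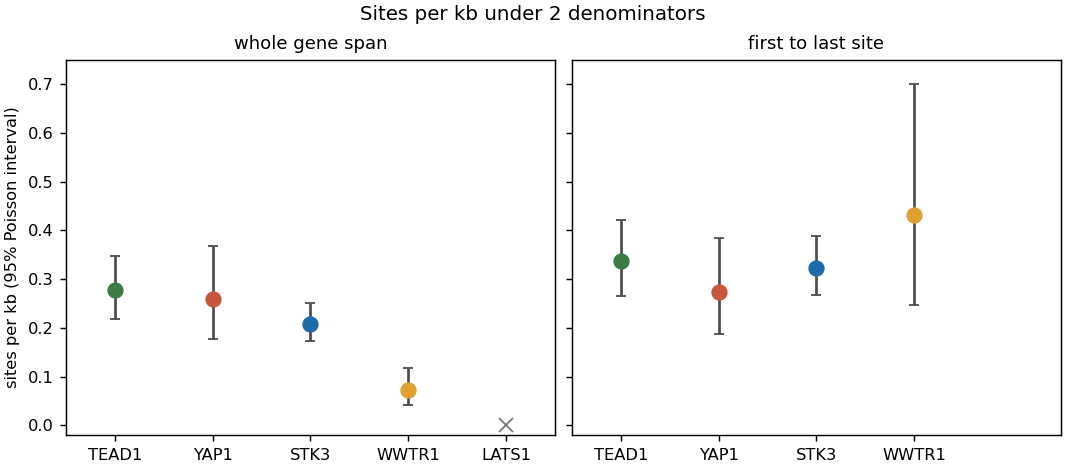
Sites per kb (y axis) of each gene over the whole span (left) and between its first and last site (right); bars are 95% Poisson intervals, which cover counting error only, and the cross marks LATS1, with no site. WWTR1 was lowest on the left at 0.0729 and highest on the right at 0.432, where its interval overlapped those of the other genes.

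No opposite-strand site lay in any of the 5 spans, nor within 50 kb of one. STK3, YAP1 and TEAD1 were also isolated on their own strand. The nearest such site outside STK3 lay 359 kb beyond the 3′ end, with a height of 22, and 936 kb beyond the 5′ end, with a height of 10. For TEAD1 the distances were 335 kb beyond the 3′ end and 287 kb beyond the 5′ end, where both sites had a height of 8. For YAP1 they were 122 kb, with a height of 54, and 1229 kb, with a height of 7. Site groups in these genes therefore ended inside the spans used here, while outside WWTR1 the site at 11.8 kb was nearer.

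The members were set beside windows of the same length tiled over both strands of the list. Of 10758 windows as long as STK3, 4 (0.0372%) held at least 113 sites, and 7 of 10772 (0.0650%) did after a shift by 50% of the length. Of 21608 windows as long as TEAD1, 17 (0.0787%) held at least 75. For YAP1 the share was 0.353% of 47548 windows, and for WWTR1 3.98% of 26624. Most windows were empty, and among windows with at least 1 site the shares were 0.0926% for STK3, 0.30% for TEAD1, 2.19% for YAP1 and 17.2% for WWTR1. Windows do not follow gene borders, and the genes were chosen for their sites, so these shares describe and do not test. Sites were also joined into runs, in which neighbours shared a strand, were at most 50 kb apart and had no opposite-strand site between them. Of 6345 such runs, 7 held at least as many sites as the 113 of STK3, its own included. The count was 51 for the TEAD1 run of 73 sites, from which the gap of 50.1 kb separated the last 2 sites. It was 310 for the run of 32 sites in YAP1 and 987 for that of 16 sites in WWTR1.

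The median height was 17 in TEAD1 (95% interval 13 to 21, from order statistics), 13 in STK3 (12 to 16), 12 in YAP1 (9 to 15) and 9.5 in WWTR1 (8 to 14). The intervals of neighbours in this order overlapped, and the order was not tested. Sites taller than 17, the upper quartile of the whole list, numbered 36 of 75 in TEAD1 (48.0%, exact binomial 95% interval 36.3 to 59.8) and 39 of 113 in STK3 (34.5%, 25.8 to 44.04). They numbered 6 of 32 in YAP1 (18.8%, 7.21 to 36.4) and 1 of 16 in WWTR1 (6.25%, 0.158 to 30.2). In the whole list 24.3% of sites were taller than 17. Sites of 1 gene share a transcript and tag clusters, so these intervals cover counting error only, are too narrow and test nothing against the list. The deposited P took its smallest value, 1e-100, at 23 TEAD1 sites (30.7%), 25 STK3 sites (22.1%), 4 YAP1 sites (12.5%) and 1 WWTR1 site (6.25%), beside 16.2% of the whole list. That P did not follow height and expected height alone. In YAP1 a site of height 15 and expected height 0.47 had a smaller P than a site of height 23 and expected height 0.45. How P was made is not given, so these shares do not rank the genes. Among the 458 sites of the list with a height of at least 75, 3 were in STK3 and 1 in TEAD1. The tallest site of STK3 ranked 52 in the list and that of TEAD1 282.

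**Figure D3:**
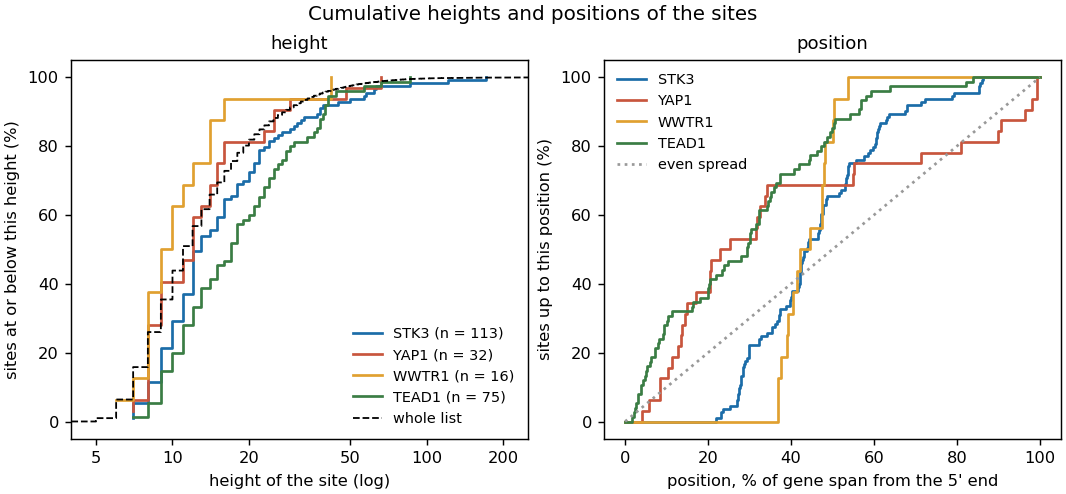
Left, the share of sites (y axis, %) at or below each height (log x axis) for 4 genes and, dashed, the whole list; right, the share of sites up to each position along the span (x axis, % from the 5′ end), with an even spread dotted. At the median, TEAD1 (17) lay to the right of the list (11) and WWTR1 (9.5) to its left. The lower quartile of WWTR1 was 8, as in the list. TEAD1 and YAP1 rose early, and WWTR1 rose steeply between 37.0% and 53.9% of its span.

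Set against the deposited expected height, the sites of TEAD1 and STK3 did not lie above the list. Divided by that value, heights had a median of 23.0 in TEAD1, 20.9 in STK3, 24.8 in YAP1 and 21.5 in WWTR1, beside 23.7 (quartiles 18.3 and 30.6) in the whole list. The median expected height was 0.810 in TEAD1, 0.710 in STK3, 0.535 in YAP1 and 0.505 in WWTR1, beside 0.510 in the list. The expected height has 1 value per tag cluster, the file does not say how it was made, and it may not be a separate measure. The same was seen inside the genes. In the first 40 kb of TEAD1 the median expected height was 1.18, against 0.590 in the rest of the gene, and the median ratios were 22.3 and 23.1. From 250 to 270 kb in STK3 the median expected height was 2.99, against 0.650 elsewhere, and the median ratios were 18.6 and 21.3.

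All 4 genes with listed sites had most of them in the upstream 50% of the span. The same share was not computed for other genes, so whether it is particular to these was not tested. The share was 64 of 75 in TEAD1 (85.3%), 13 of 16 in WWTR1 (81.3%), 22 of 32 in YAP1 (68.8%) and 74 of 113 in STK3 (65.5%). The layouts behind these shares differed. The median position was 24.1% of the span in YAP1 and 29.5% in TEAD1, and 43.8% in STK3 and 43.3% in WWTR1. The first 10% of the span held 21 sites in TEAD1 and 4 in YAP1 but none in STK3 or WWTR1, and the last 10% held 5 sites in YAP1 and none in the other 3. Positions were counted from the 5′ end of the span, and the starts that HMLE cells use were not measured. A part without sites and a part without RNA cannot be told apart here. Spearman's rho between height and distance from the 5′ end was -0.46 over the 75 sites of TEAD1. It was 0.02 over the 113 sites of STK3, 0.03 over the 32 of YAP1 and -0.30 over the 16 of WWTR1. Points of a gene share its transcript and its tag clusters, and these values are descriptions.

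The median gap between neighbours was shortest in STK3. It was 1048 nt in that gene (quartiles 298 and 2825), 1468 nt in TEAD1 (704 and 2896), 1537 nt in YAP1 (640 and 3034) and 1596 nt in WWTR1 (859 and 3449), beside 1420 nt for neighbours within the runs of the whole list. Neighbours 26 to 59 nt apart made up 12 of 112 pairs in STK3 (10.7%), 4 of 74 in TEAD1 (5.41%), 3 of 31 in YAP1 (9.68%) and 2 of 15 in WWTR1 (13.3%), beside 6.76% of 48028 pairs in the runs of the whole list. The upstream site was the taller one in 4 of the 12 close pairs of STK3, 2 of 4 in TEAD1, 3 of 3 in YAP1 and 1 of 2 in WWTR1, beside 1899 of 3249 in the whole list (58.4%). Tag clusters with 4 or more sites made up 5 of 42 in TEAD1 (11.9%), holding 22 of its 75 sites, and 2 of 77 in STK3 (2.60%), holding 12 of its 113. None of the 28 clusters of YAP1 or the 12 of WWTR1 was so full. In the whole list the share was 1096 of 40129 (2.73%), close to that of STK3. Clusters of a single site made up 59.5% of those in TEAD1, 71.4% in STK3, 85.7% in YAP1 and 66.7% in WWTR1, beside 76.7% in the list.

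**Figure D4:**
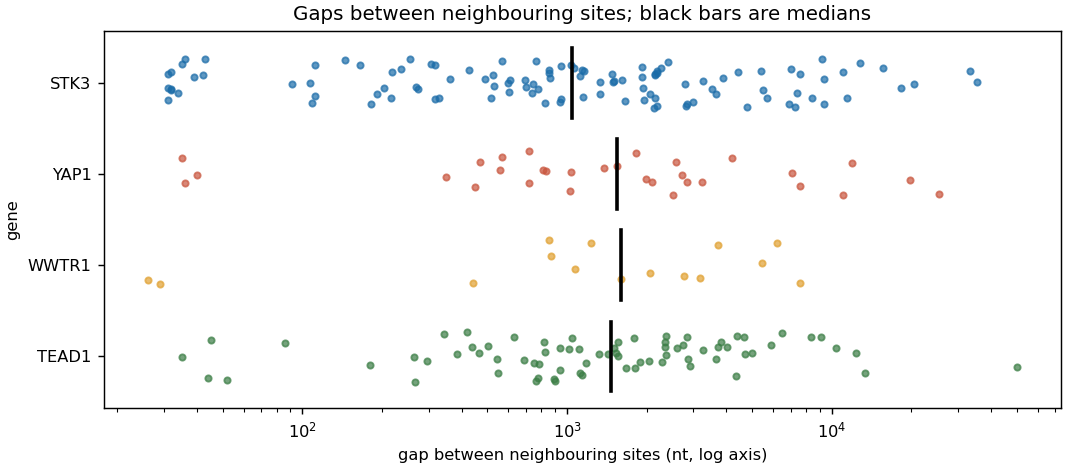
Each point is the gap in nt (log x axis) between 2 neighbouring sites of a gene, and black bars are medians; the vertical scatter within a gene has no meaning. Medians ran from 1048 nt in STK3 to 1596 nt in WWTR1, and the longest gap was 50.1 kb in TEAD1 and 7.60 kb in WWTR1.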

How the data were processed

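The deposited file was a list of crosslink sites from iCLIP of HMLE cells. Positions were read as GRCh37, the build named per the submitters' processing notes. Which aligner and caller made the list, how duplicates were treated and whether libraries were pooled are not given in the sources used here. Height was the score deposited by the authors; it equalled PH in every site's name. Expected height (PH0), tag cluster and P were other text deposited by the authors in that name, which the file does not define. PH0 was read as the height expected from the cluster.

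Sites were assigned by middle base and strand. The members, lists and measures were chosen with earlier results of these data known; all sites of the 5 genes were counted, and the 3 tallest, the longest gap and the fullest cluster of each gene were named. Intervals were 95% exact Poisson, exact binomial or, for medians, from order statistics. Windows were tiled between the first and last site of each chromosome. The planned exon, intron and motif measures, genes of like pattern and other pathway genes were not run without a GRCh37 annotation. Measures were tested on simulated data. Tools were scipy 1.17.1, pandas 2.3.3, numpy 2.4.6 and, for plots, matplotlib 3.10.9, under Python 3.11.15.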

Additional observations from a re-analysis of the deposited data

How the results depend on the processing

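Of 97 alternative values, 71 lay inside a 95% interval computed for the reported value or left a gene in its place. The interval was Poisson for sites per kb, from order statistics for median height and position, and exact binomial for window shares. This tally does not measure stability. Some values, such as the 0 of LATS1, could hardly change, and height over expected height was set against an interval of heights. The window share of STK3 was 0.0650% after the shift, inside its interval of 0.0101% to 0.0952%. The number of sites in LATS1 was 0 under every alternative run. Most of these only remove or merge sites and could not have given another number. Counting any overlap with the span reaches only 10 nt past its ends. The nearest site on the strand of LATS1 lay 45.4 kb away, so that setting could not have added a site either. Among sites at or above the median height of the list, sites per kb were 0.148 in STK3, 0.155 in YAP1 and 0.0273 in WWTR1, and the median height of STK3 was 16.5. With P of 1e-10 or less, sites per kb were 0.0905 in STK3, 0.0976 in YAP1, 0.0137 in WWTR1 and 0.148 in TEAD1, median heights were 22, 19.5, 16 and 25.5 in the same order, and the median position of TEAD1 was 19.1% of the span. Both restrictions remove sites by construction. With 1 site per tag cluster, sites per kb were 0.142 in STK3 and 0.155 in TEAD1, and YAP1 took place 1 and TEAD1 place 2. Between the first and last site, sites per kb were 0.323 in STK3 and 0.432 in WWTR1, and the places were 1 for WWTR1, 2 for TEAD1 and 4 for YAP1. Height over expected height, another quantity, had medians of 20.9 in STK3, 24.8 in YAP1, 21.5 in WWTR1 and 23.0 in TEAD1. STK3 kept place 3 of the 4 genes with sites in every alternative. Its interval for the reported value overlapped those of YAP1 and TEAD1, and this place was not tested. No paired analysis was possible because heights are not split by library, and no replicate could be left out. With library depth unknown, the number of low sites missed cannot be stated.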
